A study of Homo sapiens with 6 samples.

Results

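The NRF2 antioxidant response was followed through 9 genes: NFE2L2, which encodes the transcription factor NRF2, and its classical targets NQO1, HMOX1, GCLC, GCLM, TXNRD1, SRXN1, ME1 and GPX2. They were taken by name from the 60694 rows of a table of gene expression, and all 9 were found and were expressed enough to be tested. The table held 6 paired-end RNA-seq libraries of SW480 cells, a long established line from a human colorectal adenocarcinoma. In 3 libraries the cells overexpressed HNF4A, a nuclear receptor and transcription factor of liver and gut epithelium, and 3 were controls. The sample titles call these lenti-HNF4a and lenti, and the labels say no more of the vector or of what the controls received. They give 3 biological replicates per group and do not say whether a group came from 1 cell population or clone. Values are FPKM, fragment counts scaled to transcript length and to the size of the library, so levels of different genes can be compared per length and read totals are unknown.

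NRF2 is made continuously and, in unstressed cells, is bound by KEAP1 and handed to the CUL3 ubiquitin ligase for degradation. Oxidants and electrophiles modify KEAP1, NRF2 then escapes degradation, pairs with a small MAF protein and binds antioxidant response elements beside its target genes. The targets make glutathione, regenerate thioredoxin, reduce quinones, break down heme and supply NADPH. Because the control lies mainly in protein stability, the activity of the pathway is usually read from its targets rather than from NFE2L2 mRNA.

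Annotated promoters of these genes were searched for the core of that element, TGACNNNGC, on both strands. The windows, from RefSeq on GRCh38.p14, run from 250 bases before to 50 bases after each transcription start. The table holds 10 windows for 8 of the 9 genes, all but HMOX1. The core was present in 5 of the 10 windows, those of 4 genes, and in 13.3 percent of all 35116 windows. The matches are shown because they let the element be compared between genes of the set and with related genes that rose in HNF4A overexpression. Each line gives the strand on which the core reads TGACNNNGC, with the core in capitals.
GCLM, chr1:93909444-93909476, plus strand: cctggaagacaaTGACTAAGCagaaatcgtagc
ME1, chr6:83431168-83431200, minus strand: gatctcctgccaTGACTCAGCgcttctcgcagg
ME1, chr6:83431020-83431052, plus strand: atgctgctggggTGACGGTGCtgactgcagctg
TXNRD1, chr12:104215668-104215700, plus strand: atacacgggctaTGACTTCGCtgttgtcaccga
TXNRD1, chr12:104215759-104215791, minus strand: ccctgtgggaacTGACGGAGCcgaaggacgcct
TXNRD1, chr12:104286918-104286950, minus strand: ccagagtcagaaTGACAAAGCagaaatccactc
GPX2, chr14:64942847-64942879, plus strand: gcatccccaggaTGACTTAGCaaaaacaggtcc
MGST1, chr12:16347133-16347164, plus strand: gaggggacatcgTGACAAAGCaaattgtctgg
IDH1, chr2:208255194-208255226, minus strand: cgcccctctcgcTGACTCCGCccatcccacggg
GSTP1, chr11:67583734-67583766, plus strand: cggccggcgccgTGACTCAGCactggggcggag

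The upstream ME1 match and the GSTP1 match have the same core, TGACTCAGC, which contains the AP-1 heptamer TGACTCA. That core stood in 0.561 percent of all windows and the heptamer in 4.95 percent. The core of the second TXNRD1 promoter is the same as that of MGST1, TGACAAAGC. The windows of NFE2L2, NQO1, GCLC and SRXN1 held no match to the core, which says only that these letters are not in these windows. A 9-base HNF4 motif, CAAAGTCCA, was in 0 of the 10 windows and in 0.384 percent of all windows. A match is a description of the sequence, and no binding was measured here.

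**Figure D1:**
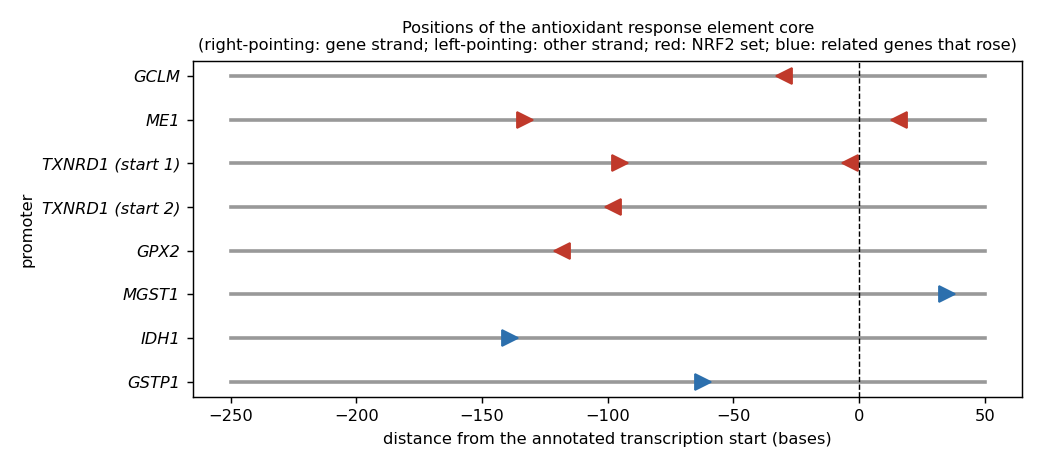
Positions of the antioxidant response element core in promoter windows, as the distance in bases from the annotated transcription start (dashed line). Right-pointing marks lie on the strand of the gene and left-pointing marks on the other. GCLM, ME1, TXNRD1 (2 starts) and GPX2 are in red and the related genes MGST1, IDH1 and GSTP1 in blue. ME1 and the first start of TXNRD1 have 2 matches in 1 window each, and the most distant match is that of IDH1.

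None of the 9 genes passed the threshold for a difference between HNF4A overexpression and control. In limma with Benjamini-Hochberg adjustment over all 14106 tested genes, with an adjusted p under 0.05 as the threshold, 0 of the 9 were higher and 0 lower. Over all tested genes 4.79 percent passed, 3.40 percent as higher and 1.39 percent as lower. At an unadjusted p under 0.05, which 18.0 percent of tested genes reached, 1 of the 9 passed, and it was NQO1. The groups did not overlap in that gene alone among the 9, against 23.8 percent of all tested genes, 13.8 percent as higher and 10.1 percent as lower. The median absolute log2 change of the 9 genes was 0.079, beside 0.088 over all tested genes. In bulk RNA such as this, fewer cells that express a gene and less of its RNA per cell cannot be told apart.

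The overexpressed gene, HNF4A (annotated locus on chromosome 20, 44355700 to 44434596, plus strand), differed between the groups by more than any other tested gene. It was measured at 1143, 721 and 852 FPKM in HNF4A overexpression, against 8.81, 6.57 and 7.47 FPKM in control, so each library matched its label (log2 change 6.70 ± 0.16 SE, limma adjusted p = 9.94e-07). FPKM summed to between 615594 and 652879 over the 6 libraries. Of 9 markers of colorectal epithelium, EPCAM, KRT8, KRT18, CDH1 and CDX2 averaged at least 1 FPKM, and KRT20, CDX1, CDH17 and CEACAM5 did not. The summed level of the 9 was 4102 to 4570 FPKM in HNF4A overexpression and 4574 to 5200 FPKM in control, most of it KRT8 and KRT18. Of the 5, CDH1 rose (17.7 ± 0.554 FPKM in HNF4A overexpression and 12.02 ± 0.939 FPKM in control, SD, n = 3 each, adjusted p = 0.00522). CDX2 and EPCAM were higher and KRT18 lower without overlap between the groups and did not pass (adjusted p = 0.110, 0.738 and 0.0956). Such lack of overlap was found in 23.8 percent of all tested genes. Of 12 markers of immune, stromal, endothelial, liver and red blood cells only COL1A1 averaged at least 1 FPKM, and the 12 summed to 4.83 to 6.23 FPKM in HNF4A overexpression and 3.19 to 3.86 FPKM in control. The part of these markers in the results was not tested.

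NFE2L2, on chromosome 2 from 177227595 to 177392697 (minus strand), is the regulator of the set. Its level was 38.1, 39.4 and 38.9 FPKM in HNF4A overexpression, against 36.4, 40.1 and 37.2 FPKM in control. The HNF4A overexpression libraries all lay within the range of the control libraries. The log2 change was 0.035 ± 0.054 (SE), with a 95 percent interval from 0.940-fold to 1.12-fold (limma adjusted p = 0.813). All fold intervals given here are on the FPKM + 1 scale, which understates the change of genes with low values. Single fold values given below are ratios of the group means of FPKM, so they need not match the log2 change. The 3 tested genes with the most similar pattern over the 6 libraries were GATAD1, TMEM141 and STK11, by the mean absolute difference of centred log2 values (0.0089, 0.010 and 0.011). They were named by closeness alone.

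NQO1, on chromosome 16 from 69706996 to 69726951 (minus strand), encodes the quinone reductase that is the usual marker of NRF2 activity. It was the most abundant gene of the set in both groups and the one with the largest difference. Its level was 242, 229 and 179 FPKM in HNF4A overexpression, against 159, 173 and 131 FPKM in control. Every HNF4A overexpression library was above every control library, but replicate 3 of HNF4A overexpression was only just above replicate 2 of control. The means were 217 ± 33.2 FPKM in HNF4A overexpression and 154 ± 21.4 FPKM in control (SD, n = 3 each), a 1.40-fold difference, with a log2 change of 0.48 ± 0.13 (SE) and an interval from 1.14-fold to 1.72-fold. The unadjusted p was 0.00546, and the adjusted p, 0.0801, did not pass with group as the only term. This call differed with the replicate number as a block, a pairing that the labels do not name, as given below. NQO1 ranked 613th of the 14106 tested genes by absolute log2 change. Replicate 3 was the lowest library of NQO1 in both groups. Without HNF4A overexpression replicate 3, NQO1 passed (adjusted p = 0.0306), and without any other library it did not (0.0856 to 0.222). The 3 tested genes with the most similar pattern were AC010719.1, CRYBG2 and SLC35E3, at mean absolute differences of 0.034, 0.069 and 0.079 on the log2 scale.

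**Figure D2:**
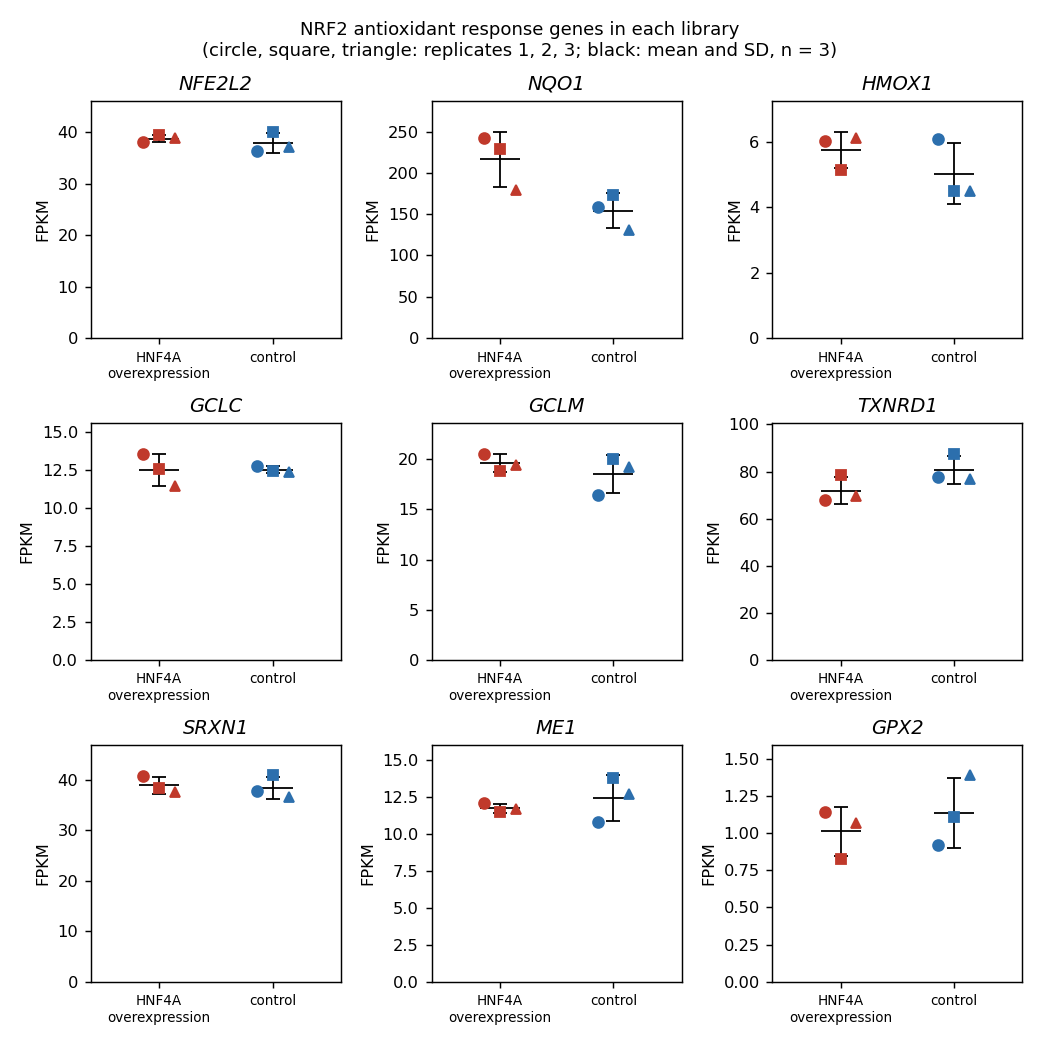
FPKM of the 9 genes in each library, with HNF4A overexpression on the left (red) and control on the right (blue). Circles, squares and triangles are replicates 1, 2 and 3, and black bars give the mean and SD (n = 3). NQO1 is the only panel in which the groups do not overlap, with 179 to 242 FPKM in HNF4A overexpression and 131 to 173 FPKM in control.

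The glutathione genes GCLC and GCLM encode the catalytic and the modifier subunit of glutamate-cysteine ligase, the rate-limiting enzyme of glutathione synthesis. GCLC lies on chromosome 6 from 53497341 to 53616970 (minus strand) and GCLM on chromosome 1 from 93885205 to 93909456 (minus strand). GCLC was at 13.6, 12.6 and 11.5 FPKM in HNF4A overexpression, against 12.8, 12.5 and 12.4 FPKM in control. Its group means were equal to 3 digits, at 12.5 ± 1.06 FPKM in HNF4A overexpression and 12.5 ± 0.216 FPKM in control (SD, n = 3 each), and HNF4A overexpression libraries lay on both sides of the controls. The interval ran from 0.890-fold to 1.12-fold (limma adjusted p = 0.991). GCLM was at 20.6, 18.8 and 19.4 FPKM in HNF4A overexpression, against 16.4, 20.0 and 19.2 FPKM in control. The low value was control replicate 1, and the groups overlapped. The log2 change was 0.079 ± 0.080 (SE), with an interval from 0.930-fold to 1.20-fold (adjusted p = 0.690). The modifier subunit was the more abundant in every library. The ratio of GCLM to GCLC was 1.515, 1.497 and 1.695 in HNF4A overexpression, against 1.287, 1.604 and 1.558 in control, a difference within the spread of the libraries (exact two-sided permutation p = 0.6, where the smallest p that 3 against 3 allows is 0.1).

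TXNRD1, on chromosome 12 from 104215779 to 104350305 (plus strand), encodes the selenoprotein thioredoxin reductase of the cytosol. It was the second most abundant gene of the set and had the most negative log2 change on the FPKM + 1 scale. Its level was 67.9, 78.4 and 69.5 FPKM in HNF4A overexpression, against 77.9, 87.6 and 76.6 FPKM in control. HNF4A overexpression replicate 2 lay above replicates 1 and 3 of control, so the groups overlapped. The log2 change was -0.16 ± 0.073 (SE), with an interval from 0.794-fold to 1.003-fold (adjusted p = 0.288). Its substrate gene TXN was at 648, 615 and 593 FPKM in HNF4A overexpression, against 679, 703 and 628 FPKM in control (adjusted p = 0.360). The ratio of TXN to TXNRD1 was 8.64 ± 0.855 in HNF4A overexpression and 8.31 ± 0.362 in control (SD, n = 3 each, exact two-sided permutation p = 0.7).

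SRXN1, on chromosome 20 from 646615 to 653370 (minus strand), encodes sulfiredoxin, which restores overoxidised peroxiredoxins. It lies on the same chromosome as the annotated HNF4A locus. Its level was 40.7, 38.4 and 37.5 FPKM in HNF4A overexpression, against 37.7, 40.8 and 36.5 FPKM in control. The groups overlapped almost completely, with a log2 change of 0.019 ± 0.060 (SE) and an interval from 0.922-fold to 1.11-fold (adjusted p = 0.915). SRXN1 and NFE2L2 could not be ordered by level, because their libraries overlapped in both groups.

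HMOX1, on chromosome 22 from 35380361 to 35394214 (plus strand), encodes heme oxygenase 1, which degrades heme and is repressed by BACH1. Its level was 6.03, 5.12 and 6.11 FPKM in HNF4A overexpression, against 6.08, 4.49 and 4.50 FPKM in control. Control replicate 1 was as high as the highest HNF4A overexpression libraries, and the groups overlapped. The log2 change was 0.17 ± 0.12 (SE), with an interval from 0.931-fold to 1.37-fold (adjusted p = 0.526).

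ME1, on chromosome 6 from 83210389 to 83431071 (minus strand), encodes malic enzyme of the cytosol, a source of NADPH. Its level was 12.1, 11.4 and 11.7 FPKM in HNF4A overexpression, against 10.8, 13.8 and 12.7 FPKM in control. The HNF4A overexpression libraries lay close together inside the wider range of the controls. The interval ran from 0.827-fold to 1.10-fold (adjusted p = 0.762). GPX2, on chromosome 14 from 64939152 to 64942905 (minus strand), encodes the glutathione peroxidase of the gastrointestinal epithelium, also a selenoprotein. It was the least abundant of the set, at 1.14, 0.829 and 1.07 FPKM in HNF4A overexpression, against 0.920, 1.11 and 1.39 FPKM in control. The groups overlapped, and the interval ran from 0.769-fold to 1.16-fold (log2 change -0.085 ± 0.13 SE, adjusted p = 0.804). At this low level the FPKM + 1 scale narrows both the change and its interval, and with 0.1 added in place of 1 the log2 change was -0.15 ± 0.23 (SE, adjusted p = 0.813). GPX1, the ubiquitous relative, was at 350 ± 19.1 FPKM in HNF4A overexpression and 326 ± 28.3 FPKM in control (SD, n = 3 each), and the ratio of GPX2 to GPX1 was 0.0029 ± 0.00057 in HNF4A overexpression and 0.0035 ± 0.00060 in control (exact two-sided permutation p = 0.4).

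**Figure D3:**
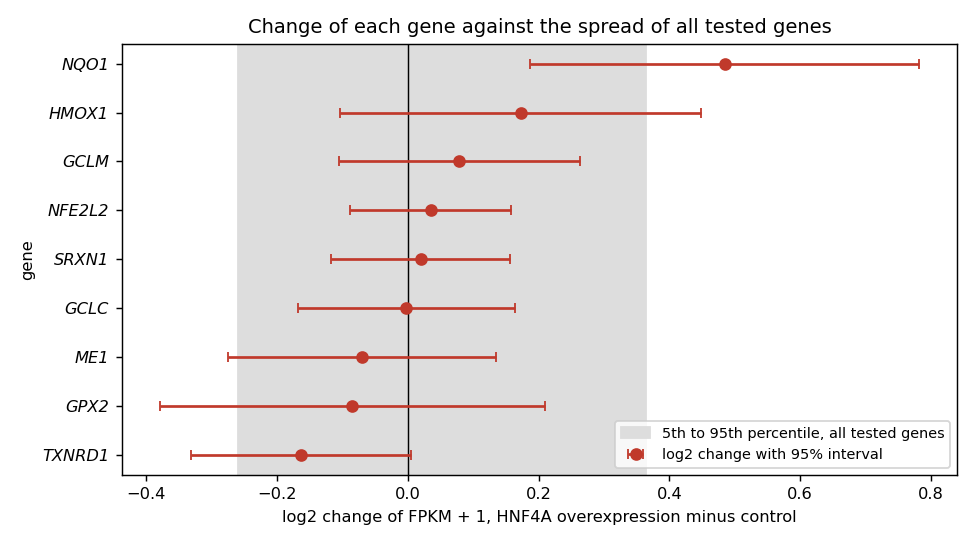
Log2 change of FPKM + 1 in HNF4A overexpression minus control for the 9 genes, with 95 percent intervals from limma. The grey band spans the 5th to the 95th percentile of all tested genes, from -0.26 to 0.36. The intervals of 8 genes include 0, and NQO1 at 0.48 is the only gene of the set outside the band.

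By mean level the 9 genes stood in the same order in both groups. NQO1 was highest, then TXNRD1, SRXN1, NFE2L2, GCLM, GCLC, ME1, HMOX1 and GPX2. Neighbours in this order were separated in every library of each group except SRXN1 and NFE2L2, and GCLC and ME1, which overlapped in both groups. Of the log2 changes 5 were positive and 4 negative, and the median was 0.019, beside 0.010 over all tested genes. Coordinates are those of GENCODE 29 on GRCh38. Annotated genes on the other strand overlap NFE2L2, NQO1, GCLC, TXNRD1, ME1 and GPX2, where the partners of GPX2 are CHURC1 and CHURC1-FNTB, and use of strand in the authors' processing is not given in the sources used here. On the same strand, annotated genes overlap NFE2L2, GCLC, TXNRD1 and SRXN1, where the partner of SRXN1 is AL121758.1. Fragments of the partners on either strand could therefore be part of the values.

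The regulators around NRF2 were examined next. Of 18 listed regulators and partners 17 were tested, and 0 were higher and 0 lower by limma with adjustment, with a median log2 change of -0.027. Over all tested genes 4.79 percent passed. At an unadjusted p under 0.05 there was 1 of the 17, beside 18.0 percent of all tested genes. KEAP1, the sensor that holds NRF2, was at 38.4, 40.6 and 39.0 FPKM in HNF4A overexpression, against 41.2, 41.4 and 37.1 FPKM in control (adjusted p = 0.915). The ratio of KEAP1 to NFE2L2 was 1.01 ± 0.014 in HNF4A overexpression and 1.05 ± 0.070 in control (SD, n = 3 each, exact two-sided permutation p = 0.6). CUL3, the scaffold of the ligase, was at 27.3 ± 2.04 FPKM in HNF4A overexpression and 28.6 ± 0.765 FPKM in control, and MAFG, a small MAF partner, at 21.5 ± 0.932 FPKM in HNF4A overexpression and 21.6 ± 2.17 FPKM in control (SD, n = 3 each). BACH1, the repressor that competes for the same elements, was the regulator with the largest difference. Its level was 7.09, 6.83 and 8.10 FPKM in HNF4A overexpression, against 9.78, 9.03 and 9.40 FPKM in control. The groups did not overlap, but the adjusted p of 0.0627 did not pass (log2 change -0.32 ± 0.080 SE). SQSTM1, which sequesters KEAP1, was at 198 ± 28.6 FPKM in HNF4A overexpression and 235 ± 36.3 FPKM in control, and the relative NFE2L3 at 117 ± 1.10 FPKM in HNF4A overexpression and 119 ± 10.5 FPKM in control (SD, n = 3 each, adjusted p = 0.384 and 0.925).

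Across 9 lists of related genes, 128 in all, 116 were expressed enough for the test. In HNF4A overexpression 10 rose and 0 fell, and 106 did not pass. The share that passed was 8.62 percent, beside 4.79 percent of all tested genes, and the difference between these shares was not tested. At an unadjusted p under 0.05 there were 26, and in 29 the groups did not overlap, where all tested genes gave 18.0 percent and 23.8 percent. These shares of all tested genes are the ones to set beside the counts of each list below. The median log2 change of the 116 was 0.026. The number that rose was 4 to 6 when any 1 library was left out, 6 without the mean-variance trend and 3 without the filter on low values, which then were ATF3, IDH2 and ABCG2, a gene too low to be tested with the filter. Only MGST1, CBR3 and ATF3 passed in all 6 fits that left out 1 library.

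In glutathione synthesis and use 3 of 16 tested genes rose and 0 fell, with a median log2 change of 0.088. MGST1, a membrane-bound glutathione transferase, was at 18.4, 11.6 and 11.9 FPKM in HNF4A overexpression, against 5.97, 6.03 and 6.26 FPKM in control. Every HNF4A overexpression library was well above the controls, and replicate 1 stood highest (2.29-fold, log2 change 1.05 ± 0.15 SE, limma adjusted p = 0.00796). GSTP1, an abundant cytosolic glutathione transferase, was at 576 ± 65.7 FPKM in HNF4A overexpression and 454 ± 10.9 FPKM in control (SD, n = 3 each, adjusted p = 0.0477). GSTK1, the glutathione transferase of mitochondria and peroxisomes, was at 71.4 ± 2.52 FPKM in HNF4A overexpression and 59.2 ± 4.19 FPKM in control (adjusted p = 0.0488). Both lay near the threshold: GSTP1 passed in 1 of the 6 fits that left out 1 library, without HNF4A overexpression replicate 2 (0.0348), and GSTK1 in 0 (0.0641 to 0.134).

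The other tested genes of the glutathione list did not pass. SLC7A11, the cystine transporter and a well known NRF2 target, was at 2.43, 3.28 and 2.33 FPKM in HNF4A overexpression, against 1.48, 2.80 and 2.45 FPKM in control, with overlap (adjusted p = 0.634). GSR, glutathione reductase, was at 28.1 ± 1.13 FPKM in HNF4A overexpression and 26.9 ± 0.788 FPKM in control (adjusted p = 0.653). SLC3A2, a partner of that transporter, was at 302 ± 12.1 FPKM in HNF4A overexpression and 297 ± 26.1 FPKM in control. GSTO1, an omega class glutathione transferase, was at 104 ± 0.541 FPKM in HNF4A overexpression and 108 ± 9.31 FPKM in control (SD, n = 3 each).

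In NADPH supply 2 of 10 tested genes rose and 0 fell, with a median log2 change of 0.055. IDH1, the cytosolic isocitrate dehydrogenase that yields NADPH, was at 36.0, 39.8 and 36.8 FPKM in HNF4A overexpression, against 17.8, 25.9 and 23.3 FPKM in control (1.68-fold, log2 change 0.74 ± 0.12 SE, adjusted p = 0.0122). The lowest library was control replicate 1, and the groups were well apart. Without HNF4A overexpression replicate 2 its adjusted p was 0.0505. IDH2, the mitochondrial enzyme, was at 25.3 ± 0.525 FPKM in HNF4A overexpression and 20.5 ± 0.662 FPKM in control (SD, n = 3 each, adjusted p = 0.0203), and passed in 1 of the 6 fits that left out 1 library, without control replicate 2 (0.0515 to 0.0760 in the others). PGD, phosphogluconate dehydrogenase, was at 65.0 ± 3.31 FPKM in HNF4A overexpression and 61.7 ± 0.739 FPKM in control, TKT at 245 ± 18.5 FPKM in HNF4A overexpression and 216 ± 21.6 FPKM in control and TALDO1 at 200.1 ± 6.35 FPKM in HNF4A overexpression and 195 ± 12.3 FPKM in control (SD, n = 3 each), and these did not pass.

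**Figure D4:**
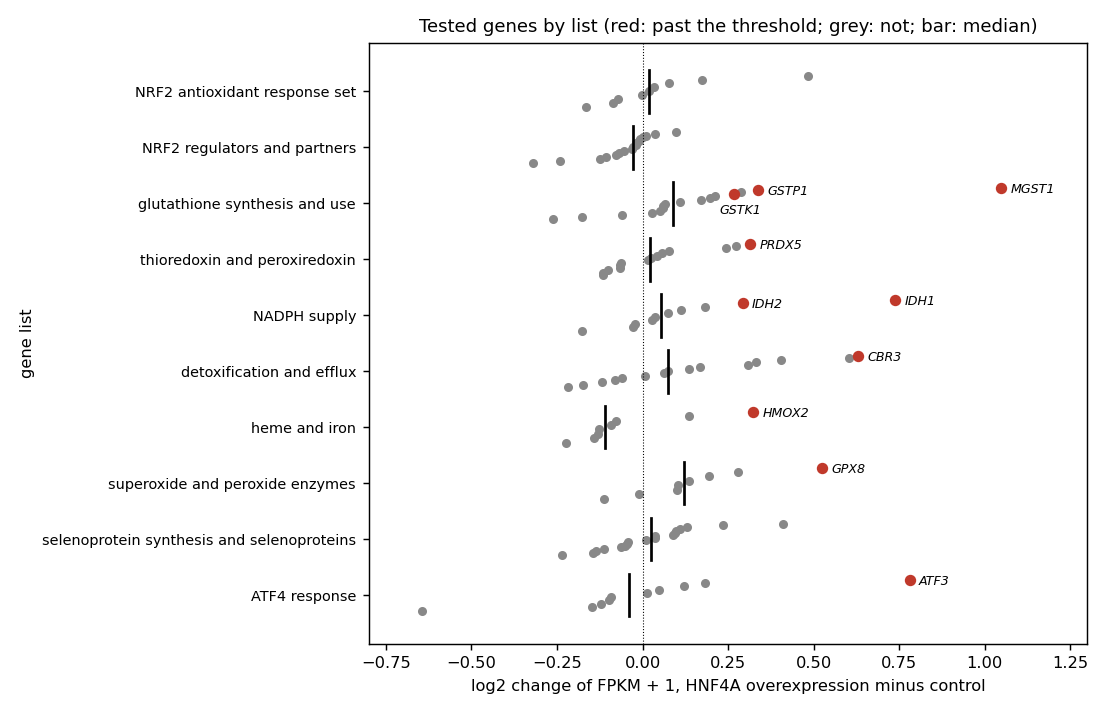
Log2 change of FPKM + 1 in HNF4A overexpression minus control for each tested gene, by list. Red points passed the threshold, grey points did not, and the black bar is the median of the list. The NRF2 antioxidant response set has no red point, and the 10 red points of the other lists, MGST1 farthest at 1.05, are all to the right of 0.

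In detoxification and efflux 1 of 15 tested genes rose and 0 fell, with a median log2 change of 0.073. The gene that rose was CBR3, a carbonyl reductase. It was at 27.4, 24.5 and 22.4 FPKM in HNF4A overexpression, against 15.4, 17.2 and 14.2 FPKM in control, without overlap (1.58-fold, log2 change 0.63 ± 0.092 SE, adjusted p = 0.00755). Its neighbour and relative CBR1 was at 60.2 ± 2.27 FPKM in HNF4A overexpression and 62.7 ± 0.640 FPKM in control (SD, n = 3 each, adjusted p = 0.590), and EPHX1, the microsomal epoxide hydrolase, at 44.8 ± 3.45 FPKM in HNF4A overexpression and 44.6 ± 2.96 FPKM in control. Antisense genes overlap CBR3 and IDH1. MGST1 is overlapped by SUPT16HP1 and LMO3 on the other strand and by AC007552.1 and AC007552.2 on its own. GSTP1 has no such overlap, and the remaining genes that rose were not examined for it.

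Among heme and iron genes 1 of 8 tested rose and 0 fell, and the median log2 change was -0.11. HMOX2, the constitutive heme oxygenase, was at 46.4 ± 3.50 FPKM in HNF4A overexpression and 36.8 ± 0.521 FPKM in control (SD, n = 3 each, adjusted p = 0.0240), and passed in 2 of the 6 fits that left out 1 library, those without HNF4A overexpression replicate 2 or 3 (0.0555 to 0.0733 in the others). It was higher than HMOX1 in every library. FTL, the ferritin light chain and an NRF2 target, was at 1414, 1289 and 1382 FPKM in HNF4A overexpression, against 1636, 1662 and 1479 FPKM in control. The groups did not overlap, and the adjusted p of 0.0927 did not pass. FTH1, the heavy chain, was at 1696 ± 201 FPKM in HNF4A overexpression and 1799 ± 307 FPKM in control.

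In the thioredoxin and peroxiredoxin list 1 of 14 tested genes rose and 0 fell, with a median log2 change of 0.021. It was PRDX5, a peroxiredoxin of mitochondria and peroxisomes, at 78.9 ± 1.48 FPKM in HNF4A overexpression and 63.3 ± 4.47 FPKM in control (SD, n = 3 each, adjusted p = 0.0217). It passed in 1 of the 6 fits that left out 1 library, without control replicate 1 (0.0127, and 0.0581 to 0.0807 in the others). PRDX1, the cytosolic enzyme and an NRF2 target, was at 549 ± 24.9 FPKM in HNF4A overexpression and 543 ± 19.7 FPKM in control (adjusted p = 0.916). Among superoxide and peroxide enzymes 1 of 8 tested genes rose and 0 fell, with a median log2 change of 0.12. It was GPX8, a peroxidase of the endoplasmic reticulum, at 9.34 ± 0.564 FPKM in HNF4A overexpression and 6.24 ± 1.09 FPKM in control (adjusted p = 0.0432), which passed in 0 of the 6 fits (0.0571 to 0.132). GPX1, given above, did not pass, and neither did GPX4, at 302 ± 8.90 FPKM in HNF4A overexpression and 282 ± 21.1 FPKM in control. Of 18 tested genes of selenoprotein synthesis and selenoproteins, a list chosen because TXNRD1 and GPX2 contain selenocysteine, 0 passed by limma with adjustment. The median log2 change was 0.024, and 2 had an unadjusted p under 0.05, beside 18.0 percent of all tested genes. SELENOW varied widely, from 41.8 to 88.4 FPKM in HNF4A overexpression and from 47.8 to 115 FPKM in control, with replicate 1 lowest in both groups. SELENOH was at 71.0 ± 4.87 FPKM in HNF4A overexpression and 70.6 ± 7.49 FPKM in control.

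The ATF4 response was listed because it shares SLC7A11 and other stress genes with NRF2. Of 10 tested genes 1 rose, ATF3, a stress-induced transcription factor, at 13.3, 12.6 and 12.4 FPKM in HNF4A overexpression, against 6.42, 6.77 and 7.87 FPKM in control (1.82-fold, log2 change 0.78 ± 0.083 SE, adjusted p = 0.00195). The groups were far apart. PHGDH, given under other observations, had the most negative log2 change of the list and did not pass (-0.64, limma adjusted p = 0.0557). ATF4 was at 175 ± 15.96 FPKM in HNF4A overexpression and 187 ± 22.9 FPKM in control and SLC7A5, an amino acid transporter, at 254 ± 12.7 FPKM in HNF4A overexpression and 272 ± 23.7 FPKM in control (SD, n = 3 each, adjusted p = 0.681 and 0.560), and the median of the list was -0.040.

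**Figure D5:**
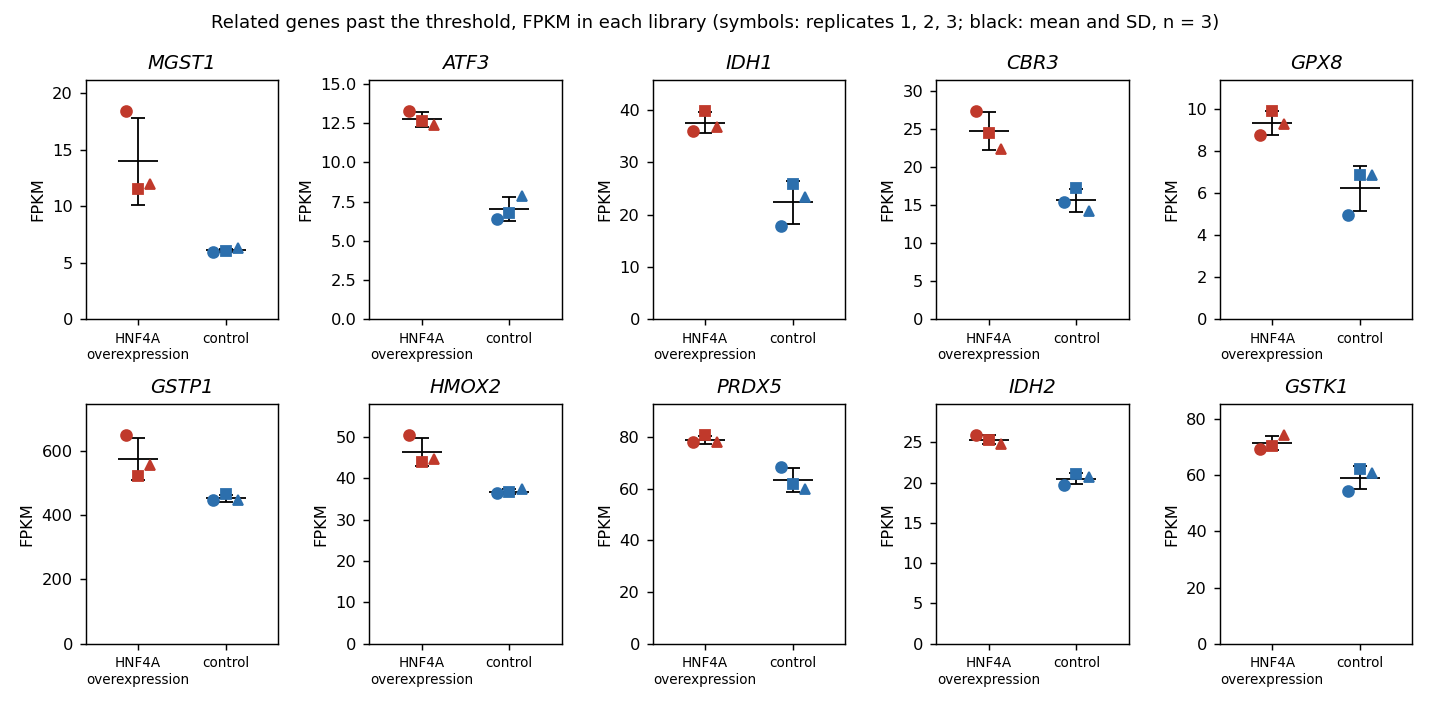
FPKM in each library of the 10 related genes that passed the threshold, with HNF4A overexpression on the left (red) and control on the right (blue). Circles, squares and triangles are replicates 1, 2 and 3, and black bars give the mean and SD (n = 3). The groups do not overlap in any of the 10, which largely follows from picking them by a test on these same values. MGST1 replicate 1 of HNF4A overexpression, at 18.4 FPKM, stands above the other 2 libraries of its group.

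Of the 10 genes that rose, 9 had promoter windows in the RefSeq table, and the element core was found in those of MGST1, IDH1 and GSTP1, printed above, and in no window of the others. The core was held by 19.8 percent of all tested genes with a window there, by 25.2 percent of all such genes that rose and by 20.9 percent of those that fell. The differences between these shares were not tested. GCLM, ME1, TXNRD1 and GPX2 hold the core too and did not pass.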

How the data were processed

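The authors deposited 1 table of FPKM values per library, with their own means of each group, which were not used. The submitters' processing notes name FastQC, Bowtie2, Bowtie, TopHat2, TopHat, Cufflinks and hg38, with no version or order. For annotation, strand use and settings, nothing is given in the sources used here. Depth per library is unknown, so no counting interval was computed. Columns were matched to samples by name. Of rows that share a gene name, the one with the highest mean was kept.

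The deposited values were taken to log2(FPKM + 1) and fitted with limma 3.58.1 under R 4.3.3, with group as the only term and moderated variances that follow the mean level (lmFit, then eBayes with its trend option). A gene was tested if 3 or more of the 6 libraries had at least 1 FPKM, and p-values were adjusted over all 14106 such genes. They measure the spread between the 3 biological replicates of each group, as the labels call them. Whether that spread covers differences between separately made cell populations is unknown. The fit was also run on data simulated from its own model. That checks the code and not how well the model describes these libraries. Ratios of partner genes used an exact permutation test. Alternatives were other pseudocounts, no filter, other scalings, no trend, summed duplicate rows, a replicate block and each library left out.

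The 9 genes, the lists and the tests were chosen with earlier results of these data known. The rule named the 9 genes, HNF4A, 10 fixed regulators and enzymes, and, of each related list, up to 5 passing genes and the 2 most abundant others. One gene that the rule names is not reported here. It also named the 3 genes closest in pattern to NFE2L2 and to the gene of the set with the largest change. Promoters were searched with Python 3.11.15.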

Additional observations from a re-analysis of the deposited data

How the results depend on the processing

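The 9 genes kept their side of the threshold under every alternative run, except NQO1. It passed with the replicate number as a block (log2 change 0.48, adjusted p = 0.00627), where 1 of the 9 was higher, and without HNF4A overexpression replicate 3, and its adjusted p ranged from 0.00627 to 0.291 over all alternatives. Deviations of same-numbered libraries correlated at 0.139, 0.091 and 0.150, and each library correlated best with its own number, but the labels name no pairing. TXNRD1, which was lower, came close to the threshold under the block and did not pass (log2 change -0.16, adjusted p = 0.0523). Under the block 638 genes were higher and 399 lower, and 3 related genes were lower, with PHGDH among them (adjusted p = 0.00627), and ABCC3 was higher (0.0140).
Over the fits that left out 1 library, 0 to 1 of the 9 genes were higher, 4 to 6 related genes higher and 0 to 1 lower, 235 to 298 of all genes higher and 83 to 155 lower. Without the filter 201 were higher and 49 lower, and 3 related genes higher. Without the trend 6 related genes were higher. With median ratio scaling 3 related genes were lower.
NQO1 kept its sign when a library was left out, with log2 changes of 0.37 to 0.62. Small changes turned sign in such fits. Their log2 changes were -0.057 to 0.055 for GCLC, -0.0019 to 0.13 for GCLM, -0.014 to 0.064 for SRXN1 and -0.16 to 0.0040 for ME1. Among related genes they were -0.053 to 0.059 for EPHX1, -0.20 to 0.047 for FTH1 and -0.11 to 0.0066 for GSTO1. They were -0.069 to 0.0081 for KEAP1, -0.080 to 0.055 for MAFG, -0.066 to 0.051 for NFE2L3 and -0.017 to 0.048 for PRDX1. For SELENOH they were -0.064 to 0.087 and for SELENOW -0.58 to 0.093. For SLC3A2 they were -0.032 to 0.093 and for TALDO1 -0.0099 to 0.081. The log2 ratio differences ranged from -0.013 to 0.15 for GCLM over GCLC and from -0.022 to 0.12 for TXN over TXNRD1. With median ratio scaling EPHX1 was at -0.0062, MAFG at -0.013 and SELENOH at -0.0022. The cause was not tested. Unknown depth limits genes near or under 1 FPKM, such as GPX2.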

Other observations

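Some genes of the detoxification list, and PHGDH of the ATF4 list, fell outside the test or the naming rule. They are given here as values chosen after they had been seen. ABCG2, an efflux pump of the apical membrane, was at 0.180, 0.156 and 0.190 FPKM in HNF4A overexpression and was listed at 0.00735, 0 and 0.0348 FPKM in control. The groups were apart, but all values were too low for the test with its filter, and without the filter the adjusted p was 0.0306. AKR1C3, an aldo-keto reductase, was at 0.362, 0.1396 and 0.440 FPKM in HNF4A overexpression, against 0.0790, 0.0303 and 0.0360 FPKM in control. Its relative AKR1C2 was at 1.83 ± 0.053 FPKM in HNF4A overexpression and 1.25 ± 0.060 FPKM in control (SD, n = 3 each, limma adjusted p = 0.102, and 0.0234 without the mean-variance trend), and AKR1B10, an NRF2 target in other cancers, was listed at 0 in all 6 libraries. ABCC3, a transporter of conjugates, was at 34.3 ± 3.14 FPKM in HNF4A overexpression and 25.8 ± 4.31 FPKM in control (adjusted p = 0.0921, and 0.0215 without control replicate 2). TRIM16 of the same list went the other way. It was at 32.7, 35.3 and 32.7 FPKM in HNF4A overexpression, against 38.6, 40.2 and 38.8 FPKM in control (limma adjusted p = 0.0570). It passed as lower with median ratio scaling (0.0465) and with the replicate block (0.0345). PHGDH, the first enzyme of serine synthesis, was at 28.2, 43.7 and 39.3 FPKM in HNF4A overexpression, against 50.5, 64.5 and 58.6 FPKM in control, with replicate 1 lowest in both groups (log2 change -0.64, adjusted p = 0.0557, and 0.0481 with median ratio scaling and 0.0462 without HNF4A overexpression replicate 2). ABCC3 and PHGDH also passed with the replicate block. Under every other alternative AKR1C2, ABCC3, TRIM16 and PHGDH did not pass, so most fits left them short of the threshold.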
